A study of Mus musculus with 11 samples.

Results

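Klf6, Ier3 and Ifrd1 are 3 rapidly induced regulators that belong to neither the AP-1 nor the EGR family. They were picked by gene name from a deposited table of mouse gingival epithelium that held 178 named genes, and all 3 were present (ENSMUSG00000000078, ENSMUSG00000003541 and ENSMUSG00000001627). The table covers 11 RNA-seq libraries from male B6 mice, whose genotype is not described further, and whose age and day of tissue collection are not in the labels. In the removal group (n = 4 libraries) a silk thread had been tied around the upper second molars and was taken off on day 3. In the ligature group (n = 3) the thread had been tied in the same way, where it holds plaque against the gum and starts periodontitis. Naive mice (n = 4) serve as controls. Epithelium from each group was lifted off after incubation in Dispase, a protease that frees epithelial sheets. Whether the libraries within a group are separate mice is not stated; the p-values reflect library-to-library spread, which may be technical.

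Rapid-response genes are kept ready for transcription and are switched on within minutes by growth factors, cytokines, wounding or other stress, without new protein synthesis. Their products set the next wave of gene expression or restrain the signal that induced them, and their mRNAs are usually short-lived. Klf6 is a zinc finger transcription factor that binds GC-rich promoter elements and is induced by tissue injury. Ier3 (also called IEX-1) is a small stress-inducible protein that influences cell survival and is a known target of NF-kappaB. Ifrd1 (also called Tis7 or PC4) is a transcriptional co-regulator that works with histone deacetylase complexes and was found as a gene induced by growth factor and phorbol ester. In gum epithelium such genes sit downstream of the receptors that sense bacteria, cytokines and epidermal growth factor ligands.

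The promoters are shown because all 3 genes were called lower with the ligature in place, using the deposited size factors. That held for 56.8% of the 176 genes tested, so it does not set the 3 genes apart. With scaling factors computed from the table itself, Klf6 alone of the 3 was called. By those factors 114 of the 176 genes were called, 50 of them lower, so this does not set Klf6 apart. Each line gives the 250 bases before the gene start from RefSeq on GRCm38.p6, which is not the build named for the deposited data (GRCm39), 5′ to 3′ on the gene's own strand, with capitals marking every match to 1 of 9 searched motifs on either strand.
Klf6 promoter, chr13:5861239-5861488, plus strand: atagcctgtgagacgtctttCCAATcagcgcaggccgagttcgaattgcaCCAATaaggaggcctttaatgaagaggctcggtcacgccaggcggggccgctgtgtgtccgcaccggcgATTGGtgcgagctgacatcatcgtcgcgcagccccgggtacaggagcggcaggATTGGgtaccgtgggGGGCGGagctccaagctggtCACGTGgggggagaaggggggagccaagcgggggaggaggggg
Ier3 promoter, chr17:35821463-35821712, plus strand: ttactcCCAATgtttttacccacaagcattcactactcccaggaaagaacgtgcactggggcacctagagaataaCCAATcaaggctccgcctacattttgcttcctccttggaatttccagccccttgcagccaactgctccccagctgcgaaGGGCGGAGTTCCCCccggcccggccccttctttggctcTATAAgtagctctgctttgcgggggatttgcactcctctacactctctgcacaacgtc
Ifrd1 promoter, chr12:40223190-40223439, minus strand: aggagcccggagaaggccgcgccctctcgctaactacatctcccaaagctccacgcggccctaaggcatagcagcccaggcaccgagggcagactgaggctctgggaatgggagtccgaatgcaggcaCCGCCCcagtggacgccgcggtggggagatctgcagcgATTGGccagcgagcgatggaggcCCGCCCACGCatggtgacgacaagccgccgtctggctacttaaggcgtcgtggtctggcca

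The Klf6 promoter held 4 matches to the CCAAT box (letters CCAAT), 2 on each strand, and 0.84% of the 32851 promoters of this length in the RefSeq table held 4 or more. It also had 1 GC box (GGGCGG, in 32.7% of promoters), the kind of element that Klf6 protein itself binds, and 1 E box (CACGTG, in 6.02%). Ier3 had a TATA box (TATAA, in 22.8%) at 58 to 54 bases before its start, 2 CCAAT boxes (10.1% of promoters held at least 2), 1 GC box and 1 NF-kappaB site, a motif found in 3.9% of promoters. That NF-kappaB match, at 92 to 83 bases before the start, overlapped the GC box by 2 bases. Ifrd1 had 1 CCAAT box (33.8% of promoters held one), 2 GC boxes and 1 EGR site (GCGTGGGCG, in 0.536%) at 60 to 52 bases before its start, which overlapped the nearer GC box. None of the 3 windows held the cAMP response element (TGACGTCA, in 1.55%), the AP-1 site (TGANTCA, in 6.75%) or the SRF CArG box (in 1.47%). GC content was 64.8% for Klf6, 54.4% for Ier3 and 66.4% for Ifrd1, against a median of 52.4% over all promoters. These matches describe letters, not binding.

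The table is a chosen set of genes, and how they were chosen is not given in the sources used here. Its counts summed to between 282274 and 503570 per library, which is not the depth. All 3 genes were measured well above counting noise, with 621 to 6406 raw counts per library, so that counting alone gives an error of 1.25% to 4.01%. The labelled tissue could be checked against few markers, since 2 of 54 fixed cell type markers were in the table. Krt10, a keratin of suprabasal epithelium and 1 of 8 such markers, was among the most abundant transcripts of the table. It had 88347 to 162606 normalised read counts in removal, 116428 to 187178 in ligature and 81960 to 109641 in naive libraries. Cd68, 1 of 5 macrophage markers, stood at 208 to 238, 170.4 to 190.6 and 222 to 336 normalised read counts in the same groups. Both markers moved with the groups: with the ligature Krt10 rose (log2 fold change 0.64, edgeR adjusted p = 0.0182) and Cd68 fell (-0.67, edgeR adjusted p = 0.00402). With trimmed mean (TMM) factors computed over the table, Krt10 was still called (0.99) and Cd68 was not (-0.31). Their part in the results below was not tested. The authors' batch-corrected values divide the libraries into set A (removal 2, 3 and 4, ligature 1, naive 1 and 2) and set B (removal 1, ligature 2 and 3, naive 3 and 4); the labels give no batch.

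Klf6, the zinc finger factor, was low with the ligature in place and close to naive levels after removal. Its normalised read counts, which are raw counts divided by 1 deposited size factor per library, were 4396, 4573, 3701 and 5278 in removal replicates 1 to 4. They were 3091, 2911 and 3175 in ligature replicates 1 to 3, and 4798, 5208, 4439 and 5611 in naive replicates 1 to 4. Every ligature library lay below every other library, and 2 of the 4 removal libraries lay within the naive range. Group means were 4487 ± 648 in removal (SD, n = 4), 3059 ± 135 in ligature (n = 3) and 5014 ± 507 in naive epithelium (n = 4). Ligature against naive gave a log2 fold change of -0.71 ± 0.12 (SE of the fit; edgeR quasi-likelihood test, adjusted p = 0.000748), a level 39.0% lower by the fitted ratio of 0.61. In bulk tissue, fewer cells that express a gene and less RNA per cell cannot be told apart. Removal against ligature gave 0.55 ± 0.12 (edgeR adjusted p = 0.0221), a ratio of 1.47, higher in 4 of 4 removal libraries. Removal against naive gave -0.16 ± 0.11 and did not pass the test (edgeR adjusted p = 0.237).

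Ier3, the survival regulator, was low in both groups that had carried a ligature. Removal replicates 1 to 4 had 693, 1002, 857 and 877 normalised read counts, and ligature replicates 1 to 3 had 884, 735 and 824. Naive replicates 1 to 4 had 1025, 1190, 1217 and 1389. All 7 libraries with a past or present ligature lay below the 4 naive libraries, while removal and ligature libraries were interleaved. The highest removal library (1002) and the lowest naive library (1025) were close. Means were 857 ± 127 in removal (SD, n = 4), 814 ± 75.4 in ligature (n = 3) and 1205 ± 149 in naive epithelium (n = 4). Ier3 fell with the ligature by 0.57 ± 0.14 on the log2 scale (edgeR adjusted p = 0.00436) and after removal, against naive, by 0.49 ± 0.13 (edgeR adjusted p = 0.0124). Removal against ligature was 0.07 ± 0.14 (edgeR adjusted p = 0.663), a difference smaller than its SE. Removal replicate 1 had the lowest value; without it, removal against naive was -0.40 (edgeR adjusted p = 0.0294).

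Ifrd1, the deacetylase-associated co-regulator, lay between those patterns. It had 1099, 1129, 1021 and 1158 normalised read counts in removal replicates 1 to 4 and 1011, 842 and 1002 in ligature replicates 1 to 3. Naive replicates 1 to 4 had 1225, 1315, 1269 and 1510. The 3 groups did not overlap in normalised counts: each ligature library was below each removal library, and each removal library was below each naive library. The lowest removal library (1021) and the highest ligature library (1011) were close. In the authors' batch-corrected values these 2 groups overlapped, with a lowest removal value of 1009 and a highest ligature value of 1025. Means were 1102 ± 58.6 in removal (SD, n = 4), 952 ± 95.2 in ligature (n = 3) and 1329.7 ± 126 in naive epithelium (n = 4). Ifrd1 fell with the ligature by 0.48 ± 0.10 on the log2 scale (edgeR adjusted p = 0.00275). After removal it fell, against naive, by 0.27 ± 0.10 (edgeR adjusted p = 0.0423), a call near the threshold. Removal against ligature was 0.21 ± 0.10 and was not called (edgeR adjusted p = 0.151).

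**Figure D1:**
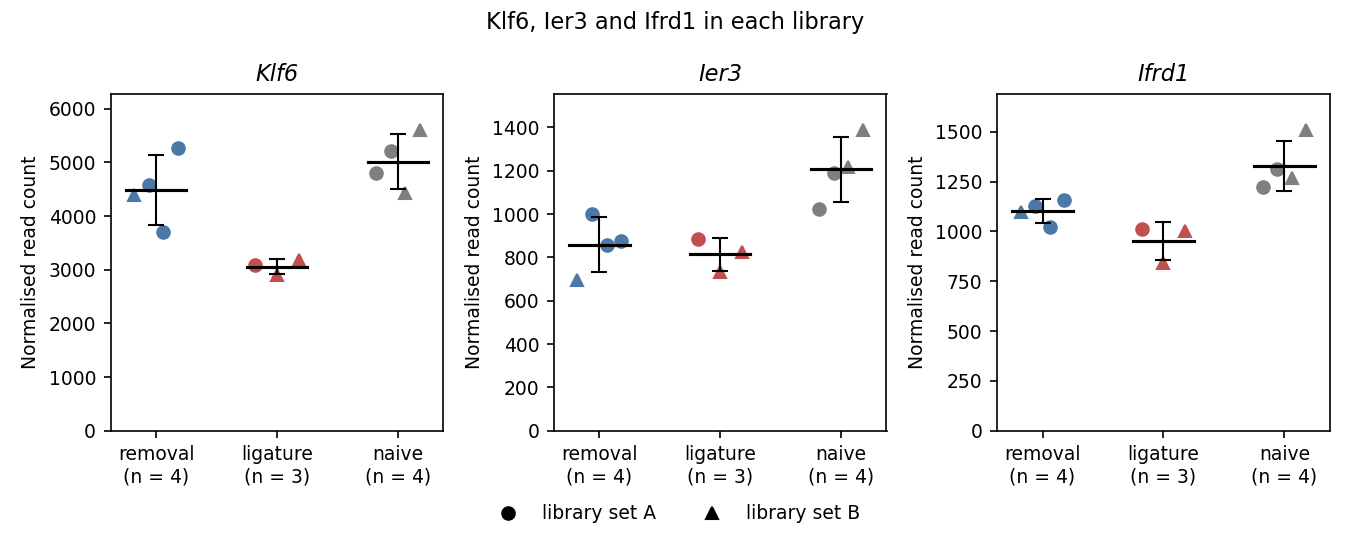
Normalised read counts (y axis) of the 3 genes in removal, ligature and naive libraries (x axis); each point is a library, circles and triangles are library sets A and B, and bars are mean ± SD. Klf6 is low in the ligature libraries alone (2911 to 3175), Ier3 is below the naive range in both other groups, and the 3 groups of Ifrd1 do not overlap, with ligature lowest and naive highest. In batch-corrected values, which are not shown, the removal and ligature libraries of Ifrd1 overlap.

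In ligature against naive 3 of 3 were called lower, and of the 176 genes tested 85.2% were called, 56.8% lower and 28.4% higher. Libraries of the 3 genes did not overlap there, as held for 48.9% of genes in the lower and 25.6% in the higher direction. In removal against naive 2 of 3 were called lower, where 37.5% of genes were called, 24.4% lower and 13.1% higher. Those 2 were lower without overlap, as were 27.8% of genes, with 15.9% higher. In removal against ligature 1 of 3 was called higher, where 19.9% were called, 2.84% lower and 17.0% higher. There 2 of 3 were higher without overlap in normalised counts, as were 23.3% of genes, with 6.25% lower. In batch-corrected values Ifrd1 overlapped in that comparison. Ordered from the lowest log2 fold change, Klf6, Ier3 and Ifrd1 ranked 56, 73 and 80 of 176 in ligature against naive. In removal against naive Klf6 ranked 91, Ier3 40 and Ifrd1 68, and in removal against ligature Klf6 ranked 144, Ier3 68 and Ifrd1 94. Comparisons that use the same naive or ligature libraries are not independent of each other.

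**Figure D2:**
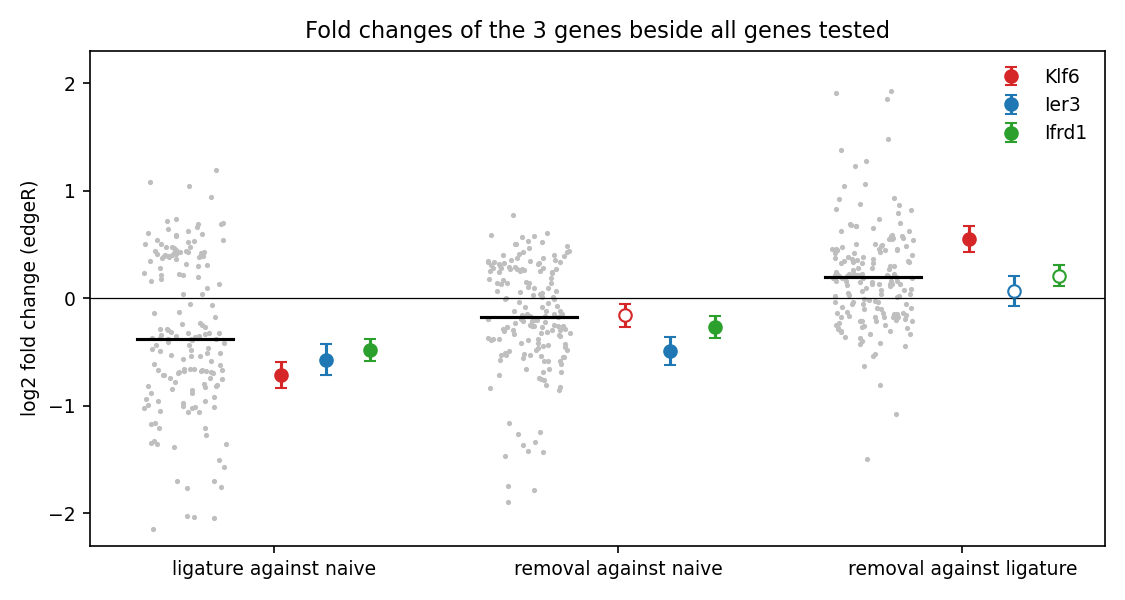
Log2 fold change (y axis) in each comparison (x axis); grey dots are all 176 genes tested with their median as a black line (15 values lie outside the axis), and coloured points are the 3 genes ± SE, filled where called. Klf6 is the lowest of the 3 in ligature against naive (-0.71) and the highest in removal against ligature (0.55), while Ier3 is the lowest in removal against naive (-0.49).

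The scale of the libraries sets how far these falls can be read. Factors computed over the table assume that most of its genes did not change, which brings the median fold change near 0 by construction. That assumption was not tested. By the deposited factors 85.2% of the genes were called in ligature against naive. With the TMM factors, the median log2 fold change of the 176 genes moved from -0.38 to -0.02 in ligature against naive, from -0.17 to 0.03 in removal against naive and from 0.20 to 0.04 in removal against ligature. Of the calls in ligature against naive, 33.3% were in the higher direction by the deposited scaling and 56.1% by TMM; the share was 34.8% and 69.4% in removal against naive, and 85.7% and 58.6% in removal against ligature. In removal against naive Klf6 turned to 0.04 with TMM. Klf6 stayed lower with the ligature under TMM (-0.35, edgeR adjusted p = 0.0111) and higher after removal than with the ligature (0.39, edgeR adjusted p = 0.0352). Under TMM 50 of the 176 genes were called lower in ligature against naive, and 17 were called higher in removal against ligature. Ier3 was not called under TMM in ligature against naive (-0.21, edgeR adjusted p = 0.144) or removal against naive (-0.30, edgeR adjusted p = 0.051); with median-of-ratios factors the removal call was kept (-0.35, edgeR adjusted p = 0.0313). Ifrd1 was called in neither (-0.12 and -0.07, edgeR adjusted p = 0.269 and 0.555). A scaling factor shifts all genes of a comparison alike, so a gene's distance from the table's median is nearly fixed by construction and does not bear on whether its level fell. With the deposited factors, the log2 fold change of Klf6 minus that median was -0.33 in ligature against naive, 0.01 in removal against naive and 0.36 in removal against ligature. The same differences were -0.18, -0.32 and -0.12 for Ier3, and -0.10, -0.10 and 0.02 for Ifrd1.

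**Figure D3:**
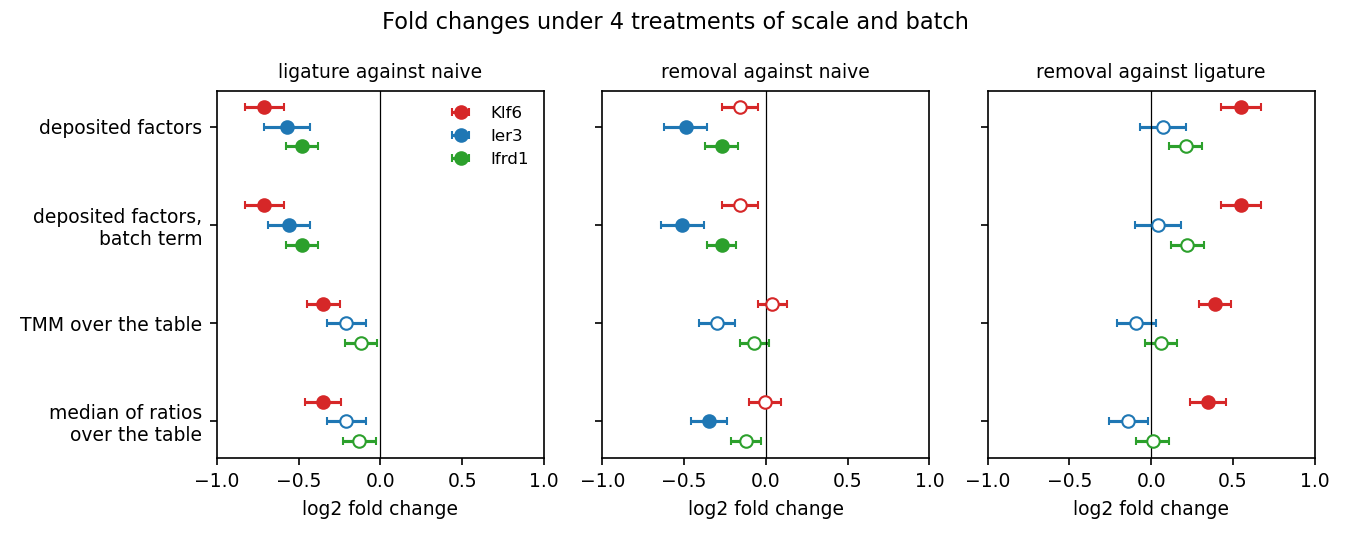
Log2 fold change ± SE (x axis) of the 3 genes in each comparison, with the deposited size factors, the same with a batch term, and TMM or median-of-ratios factors taken from the table (rows); filled points are called. Klf6 is filled in all 4 rows of ligature against naive and of removal against ligature, and Ier3 and Ifrd1 lose their ligature calls in the 2 lower rows.

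The library sets gave the same direction for Klf6 and Ifrd1. In log2 difference of mean log normalised counts, Klf6 stood at -0.69 in set A (1 ligature against 2 naive libraries) and -0.72 in set B (2 against 2), and Ifrd1 at -0.33 and -0.59. Removal against naive gave -0.16 in set A (3 against 2) and -0.18 in set B (1 against 2) for Klf6, and -0.20 and -0.33 for Ifrd1. Removal against ligature gave 0.53 in set A (3 against 1) and 0.53 in set B (1 against 2) for Klf6, and 0.12 and 0.26 for Ifrd1. Ier3 varied more between the sets, at -0.32 and -0.74 for ligature against naive, -0.28 and -0.91 for removal against naive, and 0.04 and -0.17 for removal against ligature. The only removal library of set B was removal replicate 1. With a batch term in the edgeR fit no call of the 3 genes changed.

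Ratios of 2 of these genes within a library do not depend on any scaling factor, and were examined after the values had been seen. The ratio of Klf6 to Ier3 counts was 6.34, 4.56, 4.32 and 6.02 in removal replicates 1 to 4, 3.50, 3.96 and 3.85 in ligature replicates 1 to 3, and 4.68, 4.38, 3.65 and 4.04 in naive replicates 1 to 4. Every removal library thus had more Klf6 per Ier3 than every ligature library, while the naive libraries overlapped both. On the log2 scale the difference was 0.48 in removal against ligature (exact permutation test, two-sided, p = 0.0571, adjusted p = 0.171 over 9 ratio comparisons). Klf6 to Ifrd1 was also separate in removal against ligature (0.33, exact permutation p = 0.0571) and in ligature against naive (-0.23, exact permutation p = 0.0571; adjusted p = 0.171 for both). Ifrd1 to Ier3 overlapped in all 3 comparisons (0.15, 0.08 and 0.23 for removal against ligature, ligature against naive and removal against naive). None of the 9 passed after adjustment, in designs whose smallest possible exact p is 0.0286.

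**Figure D4:**
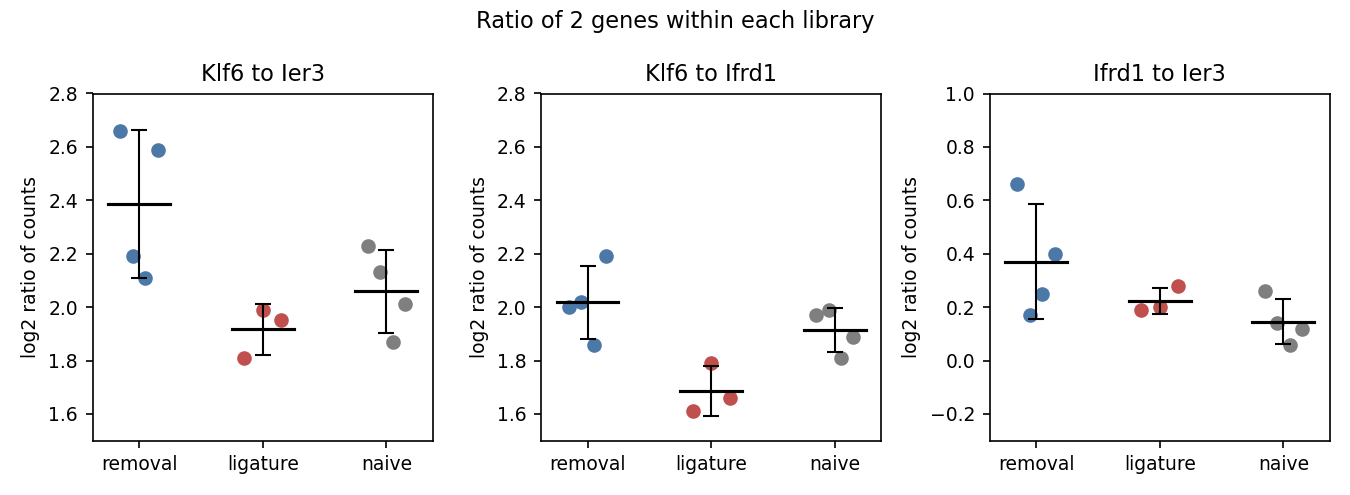
Log2 ratio of the counts of 2 genes within each library (y axis, not starting at 0) in removal, ligature and naive libraries (x axis), with mean ± SD. For Klf6 to Ier3 and Klf6 to Ifrd1 all removal points lie above all ligature points; for Ifrd1 to Ier3 the groups overlap.

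Per kilobase of annotated exon (4391 bases for Klf6, 1131 for Ier3 and 5858 for Ifrd1, GENCODE M21), the level of Klf6 was 1022 ± 148, 697 ± 30.7 and 1142 ± 116 normalised read counts in removal, ligature and naive libraries (SD, n = 4, 3 and 4). Ier3 was at 758 ± 112, 720.0 ± 66.6 and 1066 ± 132, and Ifrd1 at 188 ± 10.0, 162 ± 16.3 and 227 ± 21.5. By this measure Ifrd1 was the lowest of the 3 in every group, while Klf6 and Ier3 lay within each other's spread in ligature and naive libraries. The lengths join the exons of all annotated isoforms, and which isoforms were expressed was not examined. No annotated gene overlapped Klf6 or Ier3. Ifrd1 overlaps 4 annotated genes, of which Gm17024, a transcript in an intron of the same strand, was in the table. Gm17024 had 58.9 to 97.8 normalised read counts in removal, 35.3 to 67.3 in ligature and 83.2 to 128 in naive libraries, 6.82%, 5.64% and 8.42% of the Ifrd1 means. It fell with the ligature (log2 fold change -1.06 ± 0.28, edgeR adjusted p = 0.0060). Reads of the 2 could have been assigned to either, so both values carry that uncertainty.

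The genes with the most similar course over the 11 libraries were found by the root mean square difference of log2 counts (pseudocount 1) centred on each gene's mean. For Klf6 these were Rhob, a small GTPase (0.103), the early response gene Ier2 (0.132), the AP-1 subunit Jun (0.147) and Klhl2, of the kelch-like family (0.152). For Ier3 they were the antiproliferative Tob1 (0.110), the phosphatase regulatory subunit Ppp1r10 (0.114), the growth arrest gene Gadd45b (0.123) and the AP-1 subunit Junb (0.134). For Ifrd1 they were Tob1 (0.0888), the zinc finger gene Zfand5 (0.0956), Ppp1r10 (0.115) and Ier2 (0.115). Klf6 and Ier3 differed from each other by 0.261, and Ifrd1 differed from Klf6 by 0.160 and from Ier3 by 0.157. Among 165 genes, Ier3 was the 50th most similar to Klf6. These are descriptions over libraries that share size factors and groups. Rhob had 1936 to 2279 normalised read counts in removal, 1517 to 1747 in ligature and 2292 to 3059 in naive libraries, with fitted log2 fold changes of -0.72 (ligature against naive), -0.29 (removal against naive) and 0.42 (removal against ligature). Tob1 had 2258 to 2858, 2141 to 2675 and 2972 to 3673 in the same order of groups; its naive libraries lay above all others and its removal and ligature libraries overlapped.

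Relatives and pathway partners were taken from 5 lists with 121 genes, of which 30 were in the table. Of 17 genes of the KLF family Klf6 alone was present. Of 7 Ier and Ifrd genes, a list that includes Ier3 and Ifrd1 themselves, 4 were present (Ier2, Ier3, Ier5 and Ifrd1). All 4 fell with the ligature (median log2 fold change -0.52, against -0.38 for all genes), beside 56.8% of all genes. The counts and medians of this list therefore repeat the results of Ier3 and Ifrd1. With TMM 1 of 4 did, beside 50 of 176, a share near the background. Ier2, a nuclear early response protein, had 3327 to 4113 normalised read counts in removal, 2994 to 3108 in ligature and 4394 to 5446 in naive libraries, so the 3 groups did not overlap. Ier5, which regulates heat shock factor activity, had 1320 to 1933, 1291 to 1545 and 1648 to 2049 in the same groups, and fell with the ligature (-0.47, edgeR adjusted p = 0.0071). After removal, against naive, 3 of these 4 genes fell (median -0.33, against -0.17), beside 24.4% of all genes, and Ier5 stood at -0.22 (edgeR adjusted p = 0.138). With TMM 0 of 4 fell in that comparison, beside 22 of 176. In removal against ligature 0 of 4 were called by edgeR, beside 19.9% of all genes. There 1 (Ier2) was under 0.05 before adjustment and 1 was called by DESeq2.

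Of 55 growth factor and stress induced early genes 19 were in the table, Ier2 and Ier5 again among them. With the ligature 19 of 19 fell (median -0.72), beside 56.8% of all genes. With TMM 11 of 19 did, beside 50 of 176. The most abundant were Jun (12684 to 15696 normalised read counts in removal, 9943 to 11082 in ligature and 15606 to 19884 in naive libraries), the zinc finger factor Egr1 (10473 to 14508, 8143 to 9473 and 16956 to 19550) and the AP-1 subunit Fosb (7556 to 12188, 4426 to 7830 and 14103 to 17917). Against naive 13 of 19 fell after removal (median -0.44), beside 24.4% of all genes, and 8 of 19 did with TMM, beside 22 of 176. In removal against ligature 7 of 19 were higher (median 0.37, against 0.20 for all genes), beside 17.0% of all genes. The count of 7 was 2 with TMM, 10 with DESeq2, and 0 on leaving out 1 of removal replicates 2 and 4 or 1 of the 3 ligature libraries. Against naive the count fell to 8 without removal replicate 3. Of 30 TNF and NF-kappaB induced genes 7 were present and all 7 fell with the ligature (median -0.88), beside the same 56.8%; 6 did with TMM. They included Nfkbia, the inhibitor that holds NF-kappaB in the cytoplasm (2507 to 3031, 1935 to 2159 and 3310 to 4744), the atypical inhibitor Nfkbiz (1582 to 2304, 1128 to 1640 and 2237 to 2727) and the leucine zipper factor Cebpb (2352 to 3347, 1920 to 2426 and 2910 to 4223). After removal 4 of 7 fell against naive, beside 24.4% of all genes, and 2 of 7 were higher than with the ligature, beside 17.0%. The count of 2 was 0 with TMM and in those same 5 leave-one-out fits, and 1 without removal replicate 3. Of 18 genes of the integrated stress and unfolded protein response 2 were present, Cebpb and Ppp1r15a, a phosphatase subunit that restores translation after stress, and both fell with the ligature, beside 56.8% of all genes (1 of 2 with TMM and 1 of 2 with median-of-ratios factors). Ppp1r15a (929 to 1232, 1021 to 1287 and 1386 to 1809) was also lower in removal against naive (-0.55, edgeR adjusted p = 0.0119), where Cebpb stood at -0.32 (edgeR adjusted p = 0.0743). In removal against ligature Ppp1r15a stood at -0.05 (edgeR adjusted p = 0.754).

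Leaving out single libraries bore on 2 calls. The call of Klf6 in removal against ligature was lost without ligature replicate 1, 2 or 3 or removal replicate 2 or 4 (0.47 to 0.58, edgeR adjusted p = 0.0518 to 0.0682). DESeq2 made the call on all libraries (DESeq2 adjusted p = 0.000433) but was not refitted without single libraries, so it does not bear on this loss. The call of Ifrd1 in removal against naive was lost in 8 of 11 leave-one-out fits (-0.30 to -0.20; without naive 2, 3 or 4, ligature 3 or any removal library), with limma on normalised counts (-0.27; limma on batch-corrected values kept it at -0.25) and with both scalings over the table.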

How the data were processed

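The authors' deposited table gave 3 values per gene and library. Raw values are whole-number counts deposited by the authors. The deposited normalised counts are a signal on a linear scale and equalled the raw values over a library's size factor (0.757 to 1.21). Batch-corrected values deposited by the authors are a score on the same linear scale; 7 fall below 0. Tools named in the submitters' processing notes, without roles, are DESeq2 1.36.0, HTSeq 2.01, TopHat2 2.1.1 and cutadapt 2.10, and the build is GRCm39; the kit was stranded, but how strand was counted is not stated. Of 993339 rows, 178 named a gene.

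Tests used edgeR 4.0.16 in R 4.3.3 on the raw counts (quasi-likelihood, all 11 libraries, a mean per group, deposited size factors, default expression filter, which left 176 genes), with Benjamini-Hochberg adjustment over those genes and a threshold of 0.05. Scripts were tested on simulated data. Of 957 divisions of the libraries, sets A and B were that in which a straight line per set best linked corrected to normalised values (typical residual 6.87e-05% of a gene's mean; next best 3.73%). Alternatives were TMM and median-of-ratios factors, 2 filters, DESeq2 1.42.0, limma 3.58.1 on log2 values (pseudocount 1), a batch term, the replicate block, fits of 2 groups and leaving out each library. The members, lists and tests were chosen with earlier results of these data known. Named genes were the members, the 4 most similar genes of each, without predicted models and pseudogenes, and the 3 most abundant of each list; genes named outside this rule, Gm17024 among them, were chosen after their values were seen. Libraries of a group differed by more than counting noise (chi-square per degree of freedom at least 20.8) and none was merged.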

Additional observations from a re-analysis of the deposited data

How the results depend on the processing

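With TMM factors Klf6 in removal against naive turned to 0.04, Ier3 in removal against ligature to -0.09, and Ier3 was no longer called at -0.21 (ligature against naive) and -0.30 (removal against naive), nor Ifrd1 at -0.12 and -0.07. With median-of-ratios factors the ligature calls were lost at -0.21 (Ier3) and -0.13 (Ifrd1), the removal call of Ifrd1 at -0.12, and Ier3 in removal against ligature turned to -0.14. Limma on normalised counts lost the Ifrd1 removal call (-0.27). The Ifrd1 removal call was also lost under the replicate block (-0.27, adjusted p = 0.0665), which changed no other call of the 3 genes; it left 8 calls in removal against ligature, against 35. Deviations of same-numbered libraries from their group means correlated at -0.477 to 0.536. The correlation was positive where both libraries were of the same set (0.536, 0.438 and 0.1) and negative where they were not. It therefore cannot show whether the numbers pair the samples. In removal against naive, 66 genes were called, 126 with a batch term and 123 with limma on batch-corrected values. The cause of these shifts was not tested.

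Leaving out 1 library gave Klf6 -0.77 to -0.65 (ligature against naive), -0.25 to -0.08 (removal against naive) and 0.47 to 0.63 (removal against ligature); Ier3 -0.64 to -0.49, -0.57 to -0.40 and -0.01 to 0.16, the negative value without removal replicate 2; and Ifrd1 -0.53 to -0.40, -0.31 to -0.20 and 0.13 to 0.26. Genes called ranged from 130 to 154, 38 to 78 and 0 to 49. The 0 came without ligature replicate 1 or 2 or removal replicate 2 or 4, in edgeR, with 49 to 72 genes at an unadjusted p under 0.05. Counting error was 1.25% to 4.01% for these 3 genes; the depth of the libraries is not known.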

Other observations

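Within the 30 listed early and stress genes of the table, the 3 genes spread over the order of removal against ligature. Ppp1r15a (-0.05), Zfp36l1 (0.05) and Ier3 (0.07) had the lowest log2 fold changes, Ifrd1 ranked 8 (0.21) and Klf6 ranked 27 (0.55), next to Fosb (0.55) and Nfkbiz (0.57). Atf3 (0.67) and Arc (1.38), an activity-induced cytoskeletal gene, stood above Klf6. Of the genes named here, Klf6, Nfkbiz and Arc passed the test (edgeR adjusted p = 0.0221, 0.0276 and 0.0260), and Fosb and Atf3 did not (edgeR adjusted p = 0.0647 and 0.108). The positions are a description of a selected table.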
